A study of Mus musculus with 10 samples.

Results

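The transcripts of 41 genes that carry out DNA replication were described in intestinal epithelial cells (IECs) of the mouse colon. The genes were found by name in the expression table, and all 41 were present among its 55487 genes. The genes were chosen by name, with earlier results of these data known. They fell into 8 roles, namely 12 genes of the replicative helicase, 4 of origin licensing, 8 of the polymerases and primase, 6 of the sliding clamp and its loader, 2 of single-stranded DNA binding, 2 of Okazaki fragment maturation, 4 of deoxynucleotide supply and 3 of chromatin assembly and maintenance of DNA methylation.

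The study sequenced RNA of the colon epithelium to learn how RhoB, a small GTPase, acts on goblet cell numbers and epithelial regeneration. RNA of IECs from 5 wild type (WT) mice and 5 mice labelled as RhoB knockouts (RhoB-/-) was sequenced, one library per mouse, and all mice were of the C57BL/6J strain. The labels give neither age, sex nor treatment. According to the study's methods, mice were young adults unless stated otherwise, no restriction of the knockout to a tissue is described, and the epithelium was shaken off the colon after incubation with a calcium chelator and a reducing agent. The methods also state that WT males were bought from one supplier while RhoB-/- mice were made at another centre, so that genotype and source of the mice cannot be told apart here. Each value is in TPM, the length-scaled share of a gene's transcripts in its library, and the number of reads behind it is unknown.

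DNA replication starts when the origin recognition complex, CDC6 and CDT1 load the ring of MCM2 to MCM7 onto DNA. The ring becomes an active helicase with CDC45 and the GINS complex, and primase and polymerases alpha, delta and epsilon then copy both strands while PCNA clamps the polymerases to the template. In the colon this takes place in dividing cells of the lower crypt and ceases as cells move to the surface. Many of these genes are transcribed in late G1 and S phase under E2F transcription factors.

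The E2F background makes the start regions of these genes of interest, and a set of them is shown for that reason. RefSeq windows of 250 bases before to 50 bases after the transcription start (build GRCm38.p6) were at hand for 34 of the 41 genes. They were searched on both strands for TTTGGCGC, TTTCCCGC, TTTGCCGC and TTTCGCGC, which are forms of the E2F consensus and can overlap each other. At least 1 of these words was present for 14 of the 34 genes, or 41.2%, against 4.72% of the 9457 tested genes with a window and 2.26% of all 32851 windows. The 14 genes were Mcm3, Mcm5, Mcm6, Mcm7, Gins3, Orc1, Cdc6, Cdt1, Pola1, Pold1, Pole2, Rfc3, Lig1 and Uhrf1. A match describes the letters in the window and does not show binding. The 250 bases before the start are printed here in the direction of transcription for Mcm5, Mcm6, Mcm7, Cdc6 and Uhrf1, whose transcripts were among those that fell, with E2F words in capitals, and for Pcna, the member with the highest level, whose window held none of the 4 words. For Uhrf1 the second of its start regions is shown, since the first held no such word.
Mcm5 chr8:75109259-75109508 (+ strand): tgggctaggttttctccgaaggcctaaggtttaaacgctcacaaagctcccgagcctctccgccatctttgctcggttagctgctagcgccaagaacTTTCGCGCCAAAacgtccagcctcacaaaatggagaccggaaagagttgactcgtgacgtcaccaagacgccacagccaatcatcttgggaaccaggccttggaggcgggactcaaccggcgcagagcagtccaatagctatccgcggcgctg
Mcm6 chr1:128359706-128359955 (- strand): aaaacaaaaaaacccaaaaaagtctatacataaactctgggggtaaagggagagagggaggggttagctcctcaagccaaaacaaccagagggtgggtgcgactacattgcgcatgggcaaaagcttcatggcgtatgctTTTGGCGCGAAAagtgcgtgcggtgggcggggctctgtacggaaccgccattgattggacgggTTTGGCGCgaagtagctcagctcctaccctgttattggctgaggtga
Mcm7 chr5:138171884-138172133 (- strand): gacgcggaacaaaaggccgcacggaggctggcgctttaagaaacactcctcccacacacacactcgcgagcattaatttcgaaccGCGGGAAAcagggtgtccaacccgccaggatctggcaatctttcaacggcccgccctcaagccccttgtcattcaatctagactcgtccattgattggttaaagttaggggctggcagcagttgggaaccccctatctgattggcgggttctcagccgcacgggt
Cdc6 chr11:98907901-98908150 (+ strand): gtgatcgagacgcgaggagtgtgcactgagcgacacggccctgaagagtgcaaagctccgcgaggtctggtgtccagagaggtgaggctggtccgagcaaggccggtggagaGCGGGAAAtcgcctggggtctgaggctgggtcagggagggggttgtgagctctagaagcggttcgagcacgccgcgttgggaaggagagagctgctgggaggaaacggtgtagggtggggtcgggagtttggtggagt
Uhrf1 chr17:56304063-56304312 (+ strand): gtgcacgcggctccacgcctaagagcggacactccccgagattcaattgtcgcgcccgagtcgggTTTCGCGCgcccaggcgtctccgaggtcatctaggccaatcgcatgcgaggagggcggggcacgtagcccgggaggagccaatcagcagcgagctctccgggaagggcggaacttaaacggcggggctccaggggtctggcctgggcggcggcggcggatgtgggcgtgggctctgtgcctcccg
Pcna chr2:132253181-132253430 (- strand): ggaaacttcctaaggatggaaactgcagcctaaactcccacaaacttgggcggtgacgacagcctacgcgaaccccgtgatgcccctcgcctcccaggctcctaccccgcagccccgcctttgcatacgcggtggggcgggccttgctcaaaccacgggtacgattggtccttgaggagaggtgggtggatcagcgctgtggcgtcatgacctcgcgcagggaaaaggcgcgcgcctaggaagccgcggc
In Mcm5 the words TTTCGCGC and TTTGGCGC overlapped on opposite strands and began 153 and 149 bases before the start. Mcm6 held the same overlapping pair and a further TTTGGCGC that began 47 bases before the start. In Mcm7 and Cdc6 the printed word was TTTCCCGC on the opposite strand, 165 and 138 bases before the start, and in Uhrf1 it was TTTCGCGC, 185 bases before the start. Mcm7 also held TTTCGCGC 17 bases after the start, outside the printed stretch. These starts are those of RefSeq. In the GENCODE annotation the printed stretches of Mcm7, Cdc6 and Uhrf1 lie inside the gene. A word was present for 8 of the 13 genes with a window whose transcripts were called lower, and for 6 of the 21 that were not called. This difference was not tested. Genes called lower without a word, such as Mcm2 and Orc6, and genes not called with a word, such as Lig1 and Pole2, are not printed. Other letters were spread differently. TTTGAA, the core of the cell cycle homology region of mitotic genes, was found for 5 of the 34 replication genes, or 14.7%, the same share as among all tested genes with a window, but for 23 of 30 mitotic genes. CCAAT, the box bound by NF-Y, was found for 22 of the 34 genes, or 64.7%, against 43.3%. It was present for 9 of the 13 genes called lower and 13 of the 21 not called. TATAAA was found for 3 of the 34 genes, or 8.82%, against 9.29%.

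Certain libraries stood apart in other measures. Rhob itself had 171 to 389 TPM in WT libraries and 0.09, 0.10, 0.35 and 0.57 TPM in RhoB-/- replicates 1 to 4, but 110.9 TPM in the library labelled RhoB-/- replicate 5, which also had the highest summed stromal markers. This value goes against the label, and RhoB-/- replicate 5 below means the library so labelled. The share of TPM from mitochondrially encoded genes was 19.4%, 22.4%, 10.3%, 17.1% and 12.1% in RhoB-/- replicates 1 to 5, beside 17.5% to 26.5% for WT. The genotypes were compared with limma on log2(TPM + 1), using the 12870 genes that averaged 1 TPM or more, and a gene was called at a Benjamini-Hochberg adjusted p below 0.05. Each fold change is the RhoB-/- mean minus the WT mean of log2(TPM + 1), a scale that understates the change of low genes. Of the calls over all genes 63.5% were lower in RhoB-/- mice, a share that was 45.0% with libraries centred on their median deviation and 77.2% with mitochondrially encoded genes left out. The median log2 fold change of all tested genes was -0.13, and -0.01 after centring. The epithelial marker Epcam was high in every library, with 969 to 1319 TPM among WT and 1124 to 1639 TPM among RhoB-/- libraries.

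In RhoB-/- epithelium, 16 of the 41 replication genes had lower transcript levels than in WT, among them the whole MCM ring. The count rested on single libraries and ran from 2 to 33 when each was left out in turn. Of the MCM ring, Mcm3 alone was called in all 10 of these fits, and Mcm4 was called in 2. All 41 genes passed the filter on low values. Of these, 16 were called lower and 0 higher, beside 13.5% of all tested genes called lower and 7.73% called higher, and 25 were not called. The 16 were Mcm2, Mcm3, Mcm4, Mcm5, Mcm6, Mcm7, Orc6, Cdc6, Cdt1, Prim1, Prim2, Pold1, Pole, Rrm1, Uhrf1 and Chaf1b. At an unadjusted limma p below 0.05, 28 of 41 were lower, beside 24.9% of all tested genes. Mean TPM in RhoB-/- mice ranged from 52.4% of the WT mean for Uhrf1 to 106.8% for Gins2, with a median of 69.7%, and the estimate was negative for 40 of 41 genes, beside 65.4% of all tested genes. The median log2 fold change of the 41 genes was -0.51, against -0.13 for all tested genes. At an unadjusted p below 0.05 with a fold change above 1.5, the thresholds of the study, 13 genes were lower, beside 8.33% of all tested genes. Both values came here from limma on log2(TPM + 1) and not from the study's own fit. With a pseudocount of 0.1 the count was 20, beside 12.02% of all tested genes. In this bulk measurement, fewer replicating cells and less replication RNA per cell cannot be told apart.

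**Figure D1:**
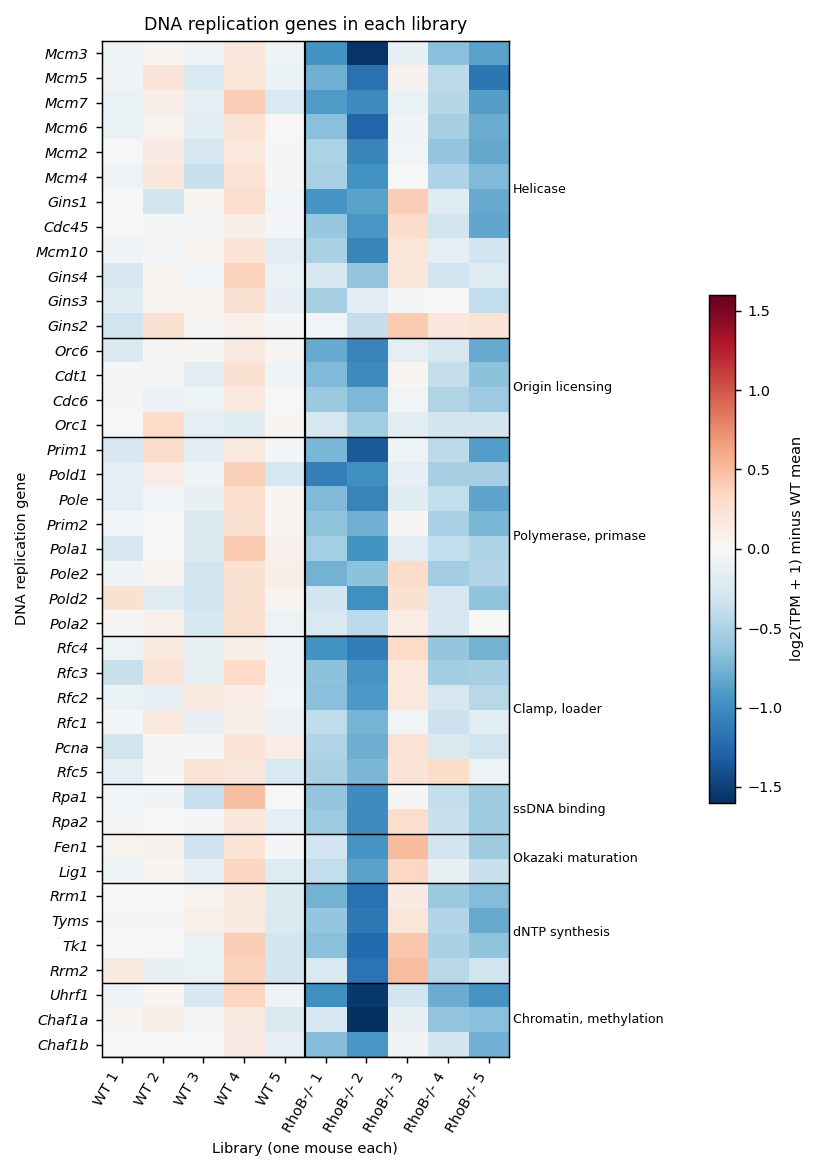
Level of each of the 41 DNA replication genes (rows, grouped by role) in each of the 10 libraries (columns), as log2(TPM + 1) minus the mean of the 5 WT libraries, with blue for lower and red for higher. RhoB-/- replicates 1, 2, 4 and 5 are blue for nearly every gene, while RhoB-/- replicate 3 is near the WT colours.

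The summed TPM of the 41 genes was 646.5, 699.2, 641.9, 818.7 and 654.9 in WT replicates 1 to 5. In RhoB-/- replicates 1 to 5 it was 446.5, 329.8, 761.1, 526.3 and 459.0. Thus 4 of the RhoB-/- libraries lay below every WT library, and RhoB-/- replicate 3 lay above all WT libraries but replicate 4. RhoB-/- replicate 3 had the highest value of the RhoB-/- libraries for 39 of 41 genes, the other 2 being Gins3 and Rfc5, which were highest in replicate 4. Its values were inside the WT range for 26 genes, above every WT library for 12 and below every WT library for 3, namely Mcm3, Pole and Uhrf1. Values below every WT library were found for 35, 40, 31 and 37 genes in RhoB-/- replicates 1, 2, 4 and 5. RhoB-/- replicate 2 was the lowest of its group for 37 genes, and WT replicate 4 the highest of its group for 33. No shares over all tested genes are at hand for these counts. The median of all tested genes, as log2(TPM + 1) minus the WT mean, was -0.18, -0.31, 0.04, -0.11 and -0.04 in RhoB-/- replicates 1 to 5. There too RhoB-/- replicate 2 was the lowest and replicate 3 the highest of the group, so part of this order was shared across the libraries. The median level was 103.9% of the WT mean in RhoB-/- replicate 3 and 58.4% in the mean of the other 4. That library also had the lowest mitochondrially encoded share. The part of this share in its high values was not tested, and calls with mitochondrially encoded genes left out are given below.

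The groups therefore overlapped for most genes. Only Mcm3, Pole and Uhrf1 had every RhoB-/- value below every WT value, 3 of 41 genes beside 8.55% of all tested genes, a share near that background. Without RhoB-/- replicate 3, with 4 libraries against 5, the groups did not overlap for 29 genes, beside 19.9% of all tested genes. Limma then called 33 of 41 lower and 0 higher, beside 22.3% of all tested genes called lower. These 33 included all 16 genes called with every library. That library was singled out for its high values in these same genes, so counts without it, here and below, are no independent support. Without RhoB-/- replicate 5 instead, 2 of 41 were called lower, beside 8.68% of all tested genes. The spread between RhoB-/- mice was the wider one, with a coefficient of variation above that of WT mice for 40 of 41 genes, Orc1 being the exception. Its median was 14.5% in WT and 32.5% in RhoB-/- libraries. No share over all tested genes is at hand for this comparison of spread.

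**Figure D2:**
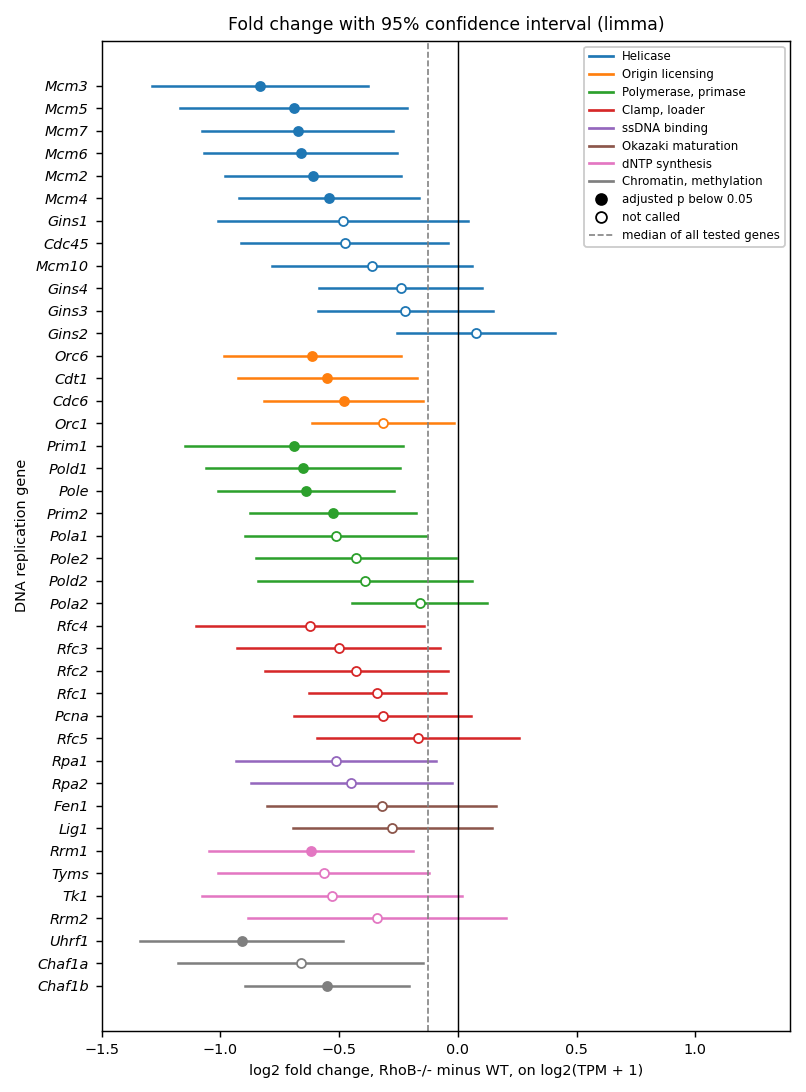
Log2 fold change, RhoB-/- minus WT on log2(TPM + 1), of the 41 genes with 95% confidence intervals from limma over 5 and 5 libraries, coloured by role, filled where the adjusted p was below 0.05. The interval lies below 0 for 28 genes, and the dashed line marks the median of all tested genes at -0.13.

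All 6 subunits of the MCM ring were lower in RhoB-/- mice. Mcm3 (chr1:20802968-20820312 on GRCm38, minus strand) had 21.8, 23.9, 22.0, 26.4 and 22.1 TPM in WT replicates 1 to 5. In RhoB-/- replicates 1 to 5 it had 11.4, 7.14, 21.1, 14.2 and 12.4 TPM. The groups did not overlap, although RhoB-/- replicate 3 was only just below the lowest WT library, and the log2 fold change was -0.83 (SE 0.21, adjusted p = 0.0163). Mcm7, the subunit with the highest level, had 29.3, 34.0, 28.2, 41.7 and 26.4 TPM in WT libraries. Its RhoB-/- values were 16.4, 15.0, 29.2, 22.6 and 16.6 TPM. Here RhoB-/- replicate 3 was inside the WT range and the other 4 were below it, with a log2 fold change of -0.67 (SE 0.18, adjusted p = 0.0244). Mcm5, Mcm6, Mcm2 and Mcm4 fell by 0.69, 0.66, 0.61 and 0.54 on the log2 scale, with adjusted p of 0.0427, 0.0272, 0.0261 and 0.0448.

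The transcripts of proteins that turn the ring into a working helicase were not called, and a difference from the ring was not tested. Cdc45, which joins the ring at activation, had a mean of 6.46 ± 0.28 TPM (SD, n = 5) in WT and 4.63 ± 2.12 TPM (n = 5) in RhoB-/- mice. Mcm10, needed for activation, had 9.70 ± 1.10 and 7.63 ± 2.61 TPM. The log2 fold change was -0.48 for Cdc45, with a 95% interval from -0.91 to -0.04. For Mcm10 it was -0.36, with an interval from -0.78 to 0.06. Among the 4 GINS subunits, the mean went from 5.30 to 3.79 TPM for Gins1, from 13.6 to 11.4 TPM for Gins4 and from 1.59 to 1.23 TPM for Gins3. Their log2 fold changes were -0.48, -0.24 and -0.22. Gins2 was the sole member with a positive estimate, with 14.3 ± 2.1 TPM for WT and 15.3 ± 3.2 TPM for RhoB-/- mice. Its log2 fold change was 0.08 with a 95% interval from -0.26 to 0.41. In the annotation, 67.3% of the exonic bases of Gins2 are shared with Gse1 on the opposite strand, which had a mean of 27.9 TPM, and reads of these genes cannot be told apart unless strand was used in counting. Without RhoB-/- replicate 3, Cdc45, Gins1 and Mcm10 were called lower too.

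Of the licensing genes, 3 of 4 were lower. Orc6, the smallest subunit of the origin recognition complex, had 10.4, 12.4, 12.5, 13.7 and 12.7 TPM in WT replicates 1 to 5. Its RhoB-/- values were 6.61, 5.36, 11.1, 10.2 and 6.59 TPM. RhoB-/- replicate 3 was inside the WT range and replicate 4 just below it, and the log2 fold change was -0.61 (SE 0.17, adjusted p = 0.0268). Cdt1, which brings the MCM ring to origins, had 11.7, 12.2, 10.5, 14.4 and 11.4 TPM in WT libraries. In RhoB-/- libraries it had 6.92, 5.38, 12.2, 8.91 and 7.19 TPM, again with replicate 3 alone inside the WT range, and the log2 fold change was -0.55 (SE 0.17, adjusted p = 0.0418). Cdc6, the loader that acts with Cdt1, fell from 2.66 ± 0.26 to 1.66 ± 0.52 TPM (adjusted p = 0.0441). Orc1, the large subunit of the recognition complex, had 3.19 ± 0.60 and 2.35 ± 0.31 TPM and was not called (adjusted p = 0.120), also not without RhoB-/- replicate 3.

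Among the polymerase genes, the catalytic subunits of the leading and lagging strand enzymes and both primase subunits were lower. Pole (chr5:110286306-110337474, plus strand), the catalytic subunit of polymerase epsilon, had 4.51, 4.91, 4.58, 6.35 and 5.24 TPM in WT replicates 1 to 5. It had 2.72, 1.91, 4.31, 3.65 and 2.39 TPM in RhoB-/- libraries, all below the WT range (log2 fold change -0.64, SE 0.17, adjusted p = 0.0213). Pold1, the catalytic subunit of polymerase delta, had 11.1, 13.4, 11.5, 16.3 and 9.89 TPM in WT and 5.21, 5.74, 11.2, 8.20 and 8.16 TPM in RhoB-/- libraries. Only RhoB-/- replicate 3 entered the WT range, and the log2 fold change was -0.65 (SE 0.19, adjusted p = 0.0296). The accessory subunit Pold2 had the highest level of the role, with 41.8, 30.2, 27.9, 41.9 and 36.3 TPM in WT and 28.3, 17.3, 41.8, 29.0 and 22.1 TPM in RhoB-/- libraries. Its groups overlapped in 3 RhoB-/- libraries and it was not called (log2 fold change -0.39, adjusted p = 0.189). Prim1 and Prim2, the primase subunits, fell from 9.85 to 5.96 TPM and from 5.48 to 3.58 TPM (adjusted p = 0.0373 and 0.0376). For their partners in polymerase alpha, the mean was 3.87 and 2.42 TPM for the catalytic Pola1 (adjusted p = 0.0561) and 14.1 and 12.5 TPM for Pola2 (adjusted p = 0.398). Pole2, the second subunit of polymerase epsilon, had 4.38 and 3.11 TPM and was not called (adjusted p = 0.131).

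None of the 6 clamp and clamp loader genes was called, with negative estimates for all 6 beside 65.4% of all tested genes. At an unadjusted limma p below 0.05, 4 of the 6 were lower, beside 24.9% of all tested genes. Rfc4, a small subunit of the loader, had 11.04, 13.3, 10.8, 12.7 and 11.2 TPM in WT replicates 1 to 5. In RhoB-/- libraries it had 5.61, 4.96, 14.8, 7.36 and 6.6 TPM. Replicate 3 exceeded all WT libraries and the other 4 were below all of them, and the log2 fold change was -0.62 (SE 0.22, adjusted p = 0.0633) with that library and -0.85 (adjusted p = 9.9e-04) without it. Of the exonic bases of Rfc4, 12.7% are shared with Eif4a2 on the opposite strand, which had a mean of 293.4 TPM. Rfc3, another small subunit, was likewise highest of the RhoB-/- libraries in replicate 3, with 10.8, 16.5, 12.9, 17.8 and 13.5 TPM in WT and 8.60, 6.83, 16.0, 9.30 and 9.49 TPM in RhoB-/- libraries (log2 fold change -0.50, adjusted p = 0.0855). Pcna, the clamp, was the most abundant of the 41 genes, and its pseudogene Pcna-ps2 reached at most 0.58 TPM. Pcna had 81.5, 98.6, 98.2, 116.4 and 108.4 TPM in WT libraries and 71.6, 57.5, 117.4, 84.9 and 79.9 TPM in RhoB-/- libraries. Replicate 3 was above and replicates 1, 2 and 5 were below the WT range (log2 fold change -0.32, adjusted p = 0.200). Rfc2 and Rfc1, the latter the large subunit, had 76.2% and 78.3% of the WT mean (adjusted p = 0.101 and 0.0861), and Rfc5 had 90.9% (adjusted p = 0.559).

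Genes that protect single strands and join fragments were not called either. Rpa1, the large subunit of replication protein A, had 23.6, 23.2, 18.5, 34.4 and 24.1 TPM in WT and 15.3, 11.6, 24.7, 18.4 and 16.0 TPM in RhoB-/- libraries. Its partner Rpa2 had 9.72, 9.89, 9.64, 11.2 and 8.81 TPM in WT and 6.22, 4.37, 12.2, 7.45 and 6.28 TPM in RhoB-/- libraries. In both genes all RhoB-/- libraries but replicate 3 were below the WT range, and the log2 fold changes were -0.51 and -0.45 (adjusted p = 0.0767 and 0.117). Fen1, the flap endonuclease that trims Okazaki fragments, had 10.9, 11.02, 8.11, 12.3 and 10.4 TPM in WT libraries. It had 8.28, 4.96, 15.2, 8.38 and 6.75 TPM in RhoB-/- libraries. Lig1, the ligase that seals them, had 17.9, 19.4, 17.1, 24.1 and 16.2 TPM in WT and 14.03, 9.95, 24.0, 17.3 and 14.5 TPM in RhoB-/- libraries. The groups overlapped for both, with log2 fold changes of -0.32 and -0.28 (adjusted p = 0.317 and 0.320). Without RhoB-/- replicate 3, Rpa1, Rpa2 and Fen1 were called lower and Lig1 was not (adjusted p = 0.0618). An antisense gene of 0.12 TPM overlaps 78.8% of the exonic bases of Fen1. Tmem258, on the opposite strand with a mean of 93.2 TPM, overlaps 5.37% of them.

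In deoxynucleotide supply, the large subunit of ribonucleotide reductase was called. Rrm1 had 20.1, 20.4, 21.0, 22.7 and 17.3 TPM in WT and 11.6, 8.29, 22.3, 13.1 and 12.2 TPM in RhoB-/- libraries (log2 fold change -0.62, SE 0.20, adjusted p = 0.0437). Tyms, thymidylate synthase, had 28.3, 27.6, 29.7, 30.8 and 23.6 TPM in WT and 17.8, 12.1, 32.1, 19.9 and 15.5 TPM in RhoB-/- libraries (log2 fold change -0.57, SE 0.20, adjusted p = 0.0661). Tk1, the thymidine kinase of the salvage pathway, had 29.0, 28.9, 26.8, 38.4 and 23.5 TPM in WT and 17.9, 11.6, 39.4, 19.9 and 18.2 TPM in RhoB-/- libraries (log2 fold change -0.53, SE 0.25, adjusted p = 0.150). For Tyms and Tk1, RhoB-/- replicate 3 had the highest value of all 10 libraries and the other 4 RhoB-/- libraries had the lowest. Rrm2, the small subunit of the reductase, had 17.2 ± 3.4 and 14.2 ± 6.3 TPM and was not called (adjusted p = 0.344).

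Chromatin genes of the replication fork held the largest decrease among the 41. Uhrf1 (chr17:56303321-56323486, plus strand), which reads hemimethylated DNA and recruits the maintenance methyltransferase, had 18.4, 19.5, 15.9, 24.5 and 18.2 TPM in WT replicates 1 to 5. It had 9.23, 5.93, 15.4, 10.6 and 9.44 TPM in RhoB-/- libraries, without overlap between the groups. The log2 fold change was -0.91 (SE 0.20, adjusted p = 0.00819). Chaf1b, the middle subunit of chromatin assembly factor CAF-1, had 7.53, 7.61, 7.62, 8.46 and 6.86 TPM in WT and 4.32, 3.52, 7.28, 5.93 and 4.05 TPM in RhoB-/- libraries (log2 fold change -0.55, SE 0.16, adjusted p = 0.0295). Replicate 3 alone entered the WT range. Chaf1a, the large subunit, had 62.1% of the WT mean (adjusted p = 0.0644), and 52.5% of its exonic bases are shared with Ubxn6.

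The subunits of a complex did not share one level on the length-scaled TPM scale. Pcna had the highest and Gins3 the lowest mean level of the 41 genes, with WT means of 100.6 and 1.59 TPM, and 27 genes had a WT mean above 10 TPM. The WT order in the MCM ring was Mcm7 at 31.9, Mcm6 at 27.6, Mcm3 at 23.2, Mcm5 at 21.4, Mcm2 at 14.4 and Mcm4 at 11.2 TPM. Between neighbours in this order the WT ranges overlapped, except for Mcm5 above Mcm2. Mcm3 was above Mcm5 in 4 of 5 WT libraries and in 1 of 5 RhoB-/- libraries. The loader subunit Rfc2 had 3.33 times the level of Rfc3, the next in order, without overlap in WT libraries, while Rfc3, Rfc1, Rfc4 and Rfc5 lay between 14.3 and 10.5 TPM with overlapping ranges. Gins2 and Gins4 overlapped, and both lay above Gins1, which lay above Gins3. Rpa1 had 2.51 times the level of Rpa2 and Pold2 had 2.86 times that of Pold1, both without overlap in WT libraries.

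**Figure D3:**
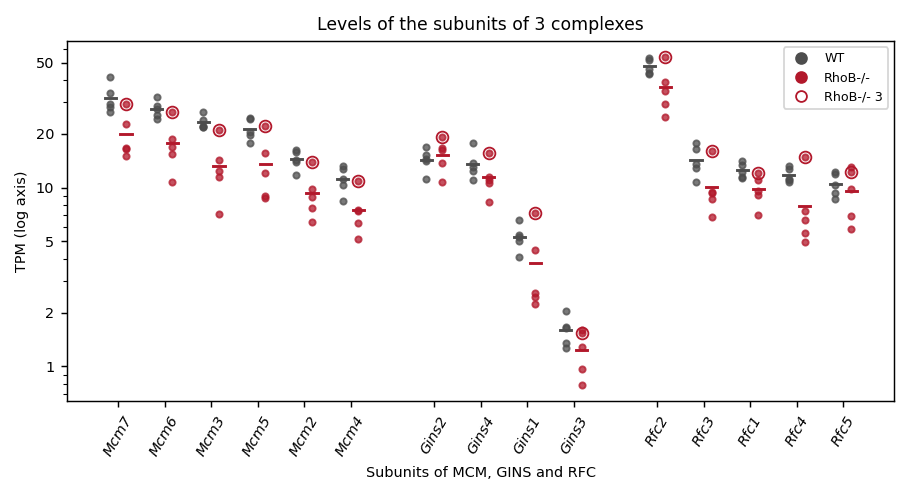
TPM (log axis) of the subunits of the MCM ring, the GINS complex and the clamp loader RFC in each of the 5 WT (grey) and 5 RhoB-/- (red) libraries, with bars at the group means and RhoB-/- replicate 3 ringed. The 6 MCM genes are lower in RhoB-/- mice apart from the ringed library, and Gins2 is the one gene whose RhoB-/- mean is the higher.

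Related genes were compared by the same test, in which 13.5% of all tested genes were lower with every library and 22.3% without RhoB-/- replicate 3. Of 48 other replication genes, 12 were called lower and 0 higher, with a median log2 fold change of -0.37, and 29 were lower without RhoB-/- replicate 3. Among them were Wdhd1, which links helicase and polymerase alpha, from 6.80 to 3.54 TPM (log2 fold change -0.82, adjusted p = 0.00682), the origin recognition subunit Orc5 (-0.53, adjusted p = 0.0135) and the checkpoint mediator Clspn (-0.84, adjusted p = 0.0234). Of 27 genes of the E2F and Rb pathway, 5 were lower and 0 higher, or 18.5%, with a median of -0.29, and 7, or 25.9%, were lower without RhoB-/- replicate 3. Both shares were near those of all tested genes. The 5 included E2f8 (-0.72, adjusted p = 0.0144), E2f1 (-0.64, adjusted p = 0.0233), E2f6 (-0.39, adjusted p = 0.0422) and Cdk2 (-0.48, adjusted p = 0.0434). Of 35 mitotic genes, 11 were lower and 0 higher, with a median of -0.57, and 35 were lower without RhoB-/- replicate 3. Hmmr (-0.68, adjusted p = 0.0130), Plk1 (-0.65, adjusted p = 0.0175), Bora (-0.70, adjusted p = 0.0193) and Ttk (-0.68, adjusted p = 0.0266) had the smallest adjusted p of that list. Mki67, which encodes Ki67, fell from 36.5 to 22.1 TPM (-0.69, adjusted p = 0.0307). The study reports more Ki67-positive cells in RhoB-/- colon sections and organoids, and more Ki67 protein in a cancer cell line with RhoB knockdown. These are protein stainings, a measure unlike RNA of bulk IECs. From the RNA described here, the study also reports changed genes related to proliferation and activated pathways that it associates with more proliferation.

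Markers of cell types were set beside the replication genes, and their part in the result was not tested. Of 14 tested crypt base markers, 6 were lower and 1 higher, with a median log2 fold change of -0.40. Sox9 fell from 23.2 to 9.77 TPM, while the stem cell receptor Lgr5 had 1.83 and 1.27 TPM and was not called (adjusted p = 0.227). Of 17 surface colonocyte markers, 0 were lower and 8 higher, with a median of 0.75, beside 7.73% of all tested genes called higher. Krt20 rose from 720.2 to 1652 TPM, while 3 of the 17 had negative estimates, namely Slc20a1 at 61.6%, Aqp4 at 67.9% and Guca2a at 97.1% of the WT mean, none of them called. Of 10 goblet cell markers, 5 were higher and 0 lower. The surface markers were raised in RhoB-/- replicate 3 as in the others, with a list median of 0.64 above the WT mean beside 0.54 to 1.26 in the other 4, whereas its replication genes had a median of 0.06 beside -0.98 to -0.39. Mitotic genes of RhoB-/- replicate 3 were at 0.27 above the WT mean, beside -1.01 to -0.51. Summed leukocyte markers were 7.63 to 13.3 TPM in WT and 23.3 to 48.5 TPM in RhoB-/- libraries over 16 genes, of which 5 of the 6 tested were higher. Ptprc, which encodes CD45, rose from 1.97 to 5.92 TPM. Summed stromal markers over 18 genes were 8.47 to 11.1 TPM in WT and 10.1 to 41.1 TPM in RhoB-/- libraries. None of these markers was at 0 in all libraries, and the B cell gene Cd79a was at 0 in 4 of 5 WT libraries and at 6.09 TPM in RhoB-/- replicate 5.

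**Figure D4:**
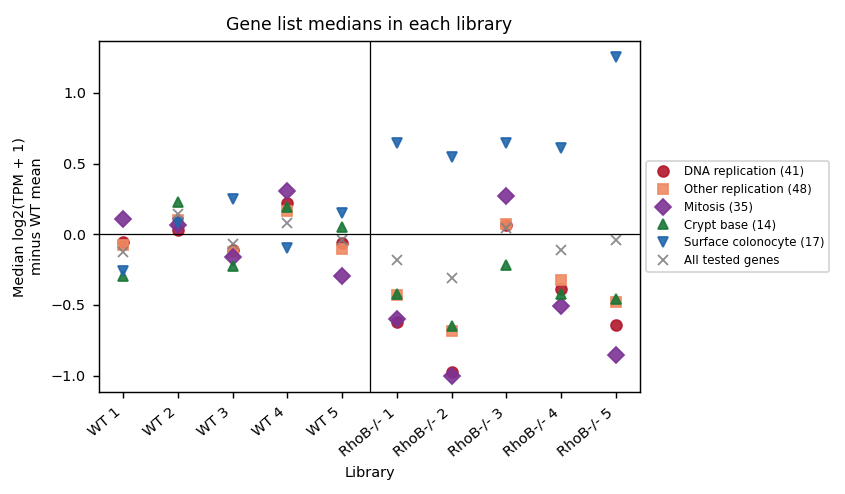
Median over each gene list of log2(TPM + 1) minus the WT mean (vertical axis) in each of the 10 libraries (horizontal axis), with the number of genes per list in brackets. The replication genes are at -0.62, -0.98, 0.06, -0.39 and -0.64 in RhoB-/- replicates 1 to 5, and surface colonocyte genes are above 0.5 in all 5 of them.

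The direction was steadier than the count of calls. The median log2 fold change of the 41 genes lay between -0.67 and -0.39 when each library was left out in turn, but the number called lower ran from 2 to 33. It was 10, 3, 14, 2 and 7 without WT replicates 1 to 5, and 4, 4, 33, 10 and 2 without RhoB-/- replicates 1 to 5. Without WT replicate 2 or 4, or RhoB-/- replicate 1, 2 or 5, the 2 to 4 genes called stood beside 6.66% to 9.15% of all tested genes, so that their share of the 41 was near that background. Mcm3 and Uhrf1 were called in all 10 of these fits and Pole in 8, and no replication gene was called higher in any of them. The other genes called with every library were called in 5 fits or fewer. Mcm2, Mcm6, Mcm7, Pold1 and Chaf1b were called in 5, Orc6 and Prim1 in 4, and Mcm5 in 3. Mcm4, Cdt1 and Prim2 were called in 2, and Cdc6 and Rrm1 in 1. After centring, 17 genes were called lower, beside 12.8% of all tested genes. The rule with a fold change above 1.5 was then passed by 2, beside 4.73% of all tested genes. With mitochondrially encoded genes left out and the rest rescaled, 29 were lower beside 28.1% of all tested genes.

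**Figure D5:**
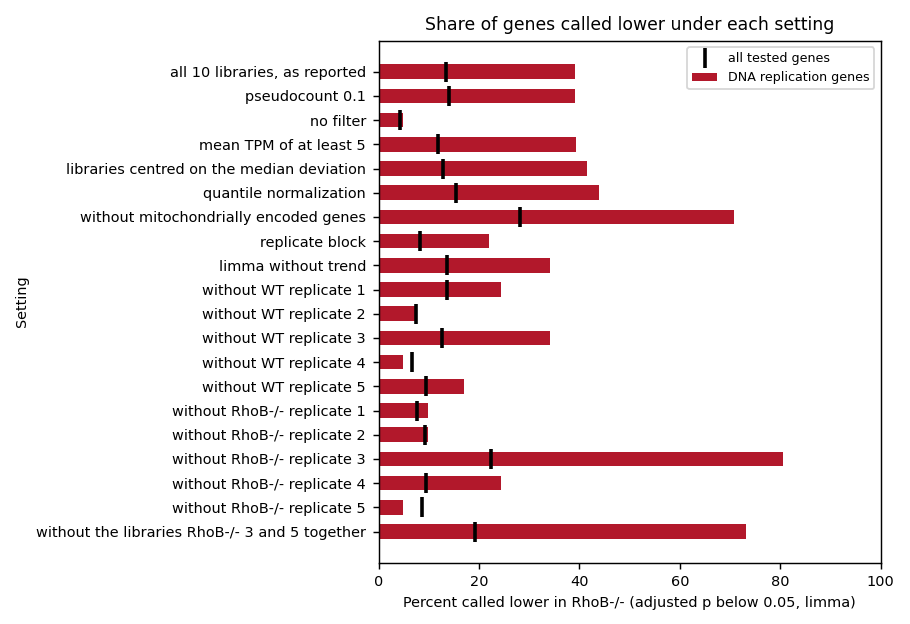
Percent of genes called lower in RhoB-/- mice at an adjusted p below 0.05 (horizontal axis) under each setting of the comparison (vertical axis), with bars for the DNA replication genes and black marks for all tested genes. The bar exceeds 70% without mitochondrially encoded genes, without RhoB-/- replicate 3, and without RhoB-/- replicates 3 and 5, and it is at or below the mark without WT replicate 2, WT replicate 4 or RhoB-/- replicate 5.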

How the data were processed

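The authors sequenced IEC RNA of 5 WT and 5 RhoB-/- mice with paired-end reads and a TruSeq library kit. The submitters' processing notes name HISAT2, StringTie, RSEM, edgeR and GRCm38.p6, without versions. The deposited values are TPM per gene, made by the authors and rounded to 2 decimals. TPM keeps no depth, so the counting error is unknown and no count test was run. Groups and replicate numbers came from the sample labels.

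Genes that averaged 1 TPM or more were compared with limma 3.58.1 in R 4.3.3 (lmFit, eBayes with trend) on log2(TPM + 1), with Benjamini-Hochberg adjustment over all 12870 tested genes. On simulated data for 12870 genes, 78.5% of 200 genes changed by 1 on the log2 scale were recovered. Of the calls there, 3.68% fell on unchanged genes. The 41 replication genes had smaller estimates, with a median of -0.51 and the lowest at -0.91 for Uhrf1. Recovery at those sizes was not tested. The effect on these shares of shifts common to all genes of a library was not tested either. The members, gene lists and tests were chosen with earlier results of these data known, so no list is independent support. Values in each library were given for the 2 members of each role with the smallest adjusted p and the member with the highest mean TPM, and 4 genes of each related list were named by adjusted p, except for a gene that is not reported here; other genes named were chosen after their values were seen. Sequences and start sites were taken from RefSeq (GRCm38.p6) and exon overlaps from GENCODE on GRCm38. The replicate numbers are shared between genotypes, but the mice differ. Alternatives were another pseudocount, no filter, a mean TPM of at least 5, centring, quantile normalization, no mitochondrially encoded genes, a replicate block, no trend, each library left out and, chosen after seeing the data, RhoB-/- replicates 3 and 5 left out together.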

Additional observations from a re-analysis of the deposited data

Results flagged for a closer look

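Each value here lay far from the other 4 of its group, at a gap above 0.71 of the group's range (Dixon's 95% limit for 5 samples). Of 108 groups examined, 7 passed, and chance alone passes about 5.4. RhoB-/- replicate 3 was the highest of its group in 5 of the 7. They were Prim2 at 5.56 TPM, Pole2 at 5.52 TPM and Rfc4 at 14.79 TPM among the replication genes, and Hmmr at 7.32 TPM and Bora at 8.15 TPM among the mitotic genes. Cdc45 was highest in WT replicate 4, at 6.96 TPM. In RhoB-/- replicate 5, by its label a knockout, Rhob was at 110.87 TPM, with at most 0.57 TPM in the other 4. The cause was not tested for any of them.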

How the results depend on the processing

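The median log2 fold change of the replication genes stayed negative under every alternative, between -0.67 and -0.39, and 0 members were called higher in each of them. Leaving out 1 library of 5 can shift a group mean only in part, so those fits say little about how firm the median is. Counts depended more on the setting. The 16 members called lower became 2 without the filter, where 28114 genes shared the adjustment, beside 4.26% of all tested genes, a share near that background. They became 29 without mitochondrially encoded genes (28.1% of all), 9 with a replicate block (8.23%), 30 without RhoB-/- replicates 3 and 5 (19.2%), and 2 to 33 with single libraries left out (6.66% to 22.3%). The 13 members that passed by unadjusted p and by fold change became 20 with a pseudocount of 0.1 (12.02% of all), 2 after centring (4.73%), 5 with quantile normalization (5.08%), 21 without mitochondrially encoded genes (11.8%), 29 without RhoB-/- replicates 3 and 5 (12.2%), and 3 to 27 with single libraries left out (6.74% to 11.4%). The 3 members without overlap became 6 after centring (7.92% of all), 14 without mitochondrially encoded genes (16.2%), 29 without RhoB-/- replicates 3 and 5 (24.8%), and 3 to 29 with single libraries left out (8.64% to 19.9%). The 12 other replication genes called lower became 2 without the filter (4.26% of all) and 7 at a mean TPM of at least 5 (11.9%). They became 28 without mitochondrially encoded genes (28.1%) and 5 with the replicate block (8.23%). Without RhoB-/- replicates 3 and 5 they became 24 (19.2%), and with single libraries left out 2 to 29 (6.66% to 22.3%). Gins2, at 0.08, turned to -0.0048 without WT replicate 1, -0.0088 without RhoB-/- replicate 3 and -0.0808 without RhoB-/- replicates 3 and 5, and lay between -0.0088 and 0.189 with single libraries left out. Where the construction of the alternative does not show it, the cause was not tested. Over single members and alternatives, 604 results kept direction and side of the threshold, 114 were no longer called, 50 became called and 3 changed sign. Same-numbered mice did not deviate together, with correlations of 0.02, 0.02, 0.07, -0.09 and -0.0025, and only pair 3 matched its own number best. No pairing by number was thus seen. The labels do not state whether same-numbered samples were handled together, and these correlations cannot decide it. With no depth in TPM, the error of low genes such as Gins3 and Cdc6 cannot be divided into counting and mouse to mouse parts.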
